A study of Drosophila melanogaster with 6 samples.

Results

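The mitochondrial ribosome was followed through the nuclear genes for its proteins, taken as every gene whose current symbol starts with mRpL (large subunit) or mRpS (small subunit). RefSeq lists 73 such genes, 47 mRpL and 26 mRpS, and 64 of them, 43 mRpL and 21 mRpS, had a probe set of their own on the array, among 10843 genes measured in all. The other 9 (mRpL27, mRpL34, mRpL37, mRpL53, mRpS5, mRpS10, mRpS14, mRpS21 and mRpS23) had none and are given no value here, except for mRpS10, whose probe set is shared with a second gene. Where a gene had more than 1 probe set, the one with the highest mean signal stood for it.

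The mutant larvae were mle/mle, homozygous for a mutation of maleless, at the third instar, and the labels call them male. They were told by the Tb phenotype, a dominant body shape marker, from heterozygous larvae that carry the translocation T(2-3)Tb. The other group was wild type larvae at the third instar, of the strain that the labels spell cancon S, and their sex is not given. Each group had 3 Affymetrix arrays of whole larval RNA, called biological replicates. The mle allele, the strain background of the mutants and the number of larvae per sample are not given. Strain, sex and mle genotype therefore cannot be told apart, and p-values measure the spread between these RNA samples. In whole larvae, fewer cells of a type and less RNA per cell cannot be told apart either.

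Mitochondrial ribosomes translate the few messages that mitochondrial DNA encodes, all for subunits of the respiratory chain and the ATP synthase. Their proteins are made in the cytosol from nuclear genes and imported. The small subunit decodes the message and the large subunit joins amino acids and lets the new chain out through its tunnel, close to the inner membrane. Part of these proteins descend from bacterial ribosomal proteins, while the others arose in mitochondria. The series asks how maleless acts on X and autosomal genes: its protein, an RNA helicase, belongs to the MSL complex, by which males transcribe their one X more strongly. The mitoribosomal genes lie on X and on autosomes and can be read in both places.

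Log2 RMA signals are used throughout unless another scale is named, and a change is mle/mle minus wild type. The probe set of mle read 5.32, 5.43 and 5.28 in mle/mle larvae and 5.38, 5.56 and 5.40 in wild type larvae. These readings overlapped and lay below the lower quartile of every array (5.80 to 5.84), so they do not check the genotype. The other MSL genes did not pass the test either, with changes of 0.0098 for mof, -0.03 for msl-3 and -0.05 each for msl-2 and msl-1. Fat body genes of the larva (Fbp1, Fbp2 and Lsp2) read between 11.54 and 13.97 and the 6 salivary gland glue genes between 9.51 and 14.23 on all arrays, as the larval label would have it. The arrays numbered replicate 2 stood apart from the others in both groups. On them the median of 16 testis genes lay 0.58 (mle/mle) and 0.28 (wild type) below each gene's own mean over the 6 arrays, whereas on the other arrays it lay 0.20 to 0.30 above it. Of these, Mst84Da read 11.04, 9.71 and 10.99 in mle/mle larvae and 11.08, 10.17 and 11.07 in wild type larvae, while can was dim at 3.86 to 4.11. The wild type samples thus held testis RNA too, and their share of males was not tested.

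No mitoribosomal gene passed the test. With limma and Benjamini-Hochberg adjustment over all 13966 probe sets, 0 of the 64 were called at an adjusted p under 0.05, against 7 of 10843 genes (0.0646%) and 0.0573% of probe sets, and the smallest adjusted p among the 64 was 0.57. By limma's unadjusted p under 0.05 there was 1 of 64, against 4.63% of all genes, and it was higher in mle/mle, as were 3.15% of genes. Adding the replicate block gave 3 of 64 by limma (mRpL1, mRpL9 and mRpS11), against 7.61% of genes, all 3 higher in mle/mle, as were 4.72% of genes. After adjustment 0 remained with that block, against 0.0553% of genes, and 0 in the PLIER table, against 0.0369%. The fitted changes were small, between -0.12 and 0.26, and 63 of the 64 lay within 0.2 of zero. The 95% intervals of limma ran between -0.37 and 0.44 over all members, so changes larger than these bounds lie outside every member's interval. The median SD between replicates was 0.087 for these genes and 0.111 for all genes.

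The changes leaned to one side. They were positive in 52 of 64 members (81.2%), against 53.6% of all genes, and negative in 12, against 46.4%, and their median was 0.07, against 0.0067 over all genes. Groups did not overlap, with mle/mle higher, in 7 members (10.9%), against 5.56% of all genes. None of the 64 had groups apart in the other direction, against 3.07% of genes. In all 3 same-numbered pairs of arrays mle/mle was higher for 17 members (26.6%, against 15.5% of genes) and wild type was higher for 1 (1.56%, against 12.1%). By PLIER signals 52 of 64 were positive too, against 51.0% of genes, and 56 of the 64 had the same sign as in the RMA table. No test was run on these counts.

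The lean was smaller without 1 of the wild type arrays. Each member was set against its own mean over the 6 arrays. The median of these deviations was 0.037, 0.045 and 0.0014 on mle/mle replicates 1 to 3, and -0.019, -0.091 and 0.023 on wild type replicates 1 to 3. Wild type replicate 2 stood lowest, and wild type replicate 3 lay above mle/mle replicate 3, so the groups overlapped. Wild type replicate 2 gave the lowest of the 6 readings for 36 of the 64 genes (56.2%), against 24.7% of all genes. Without it the median change was 0.02, with 43 of 64 members positive, against 54.4% of all genes. With the replicate 2 arrays of both groups left out, the median was likewise 0.02, and 37 of 64 were positive, against 50.2% of genes. No member was called then (smallest adjusted p = 0.094 by limma), against 3.52% of genes. By unadjusted p there were 5 (mRpL45, mRpS2, mRpS11, mRpS25 and mRpS33), against 14.4% of genes, of which 4 were higher in mle/mle, against 7.55%.

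**Figure D1:**
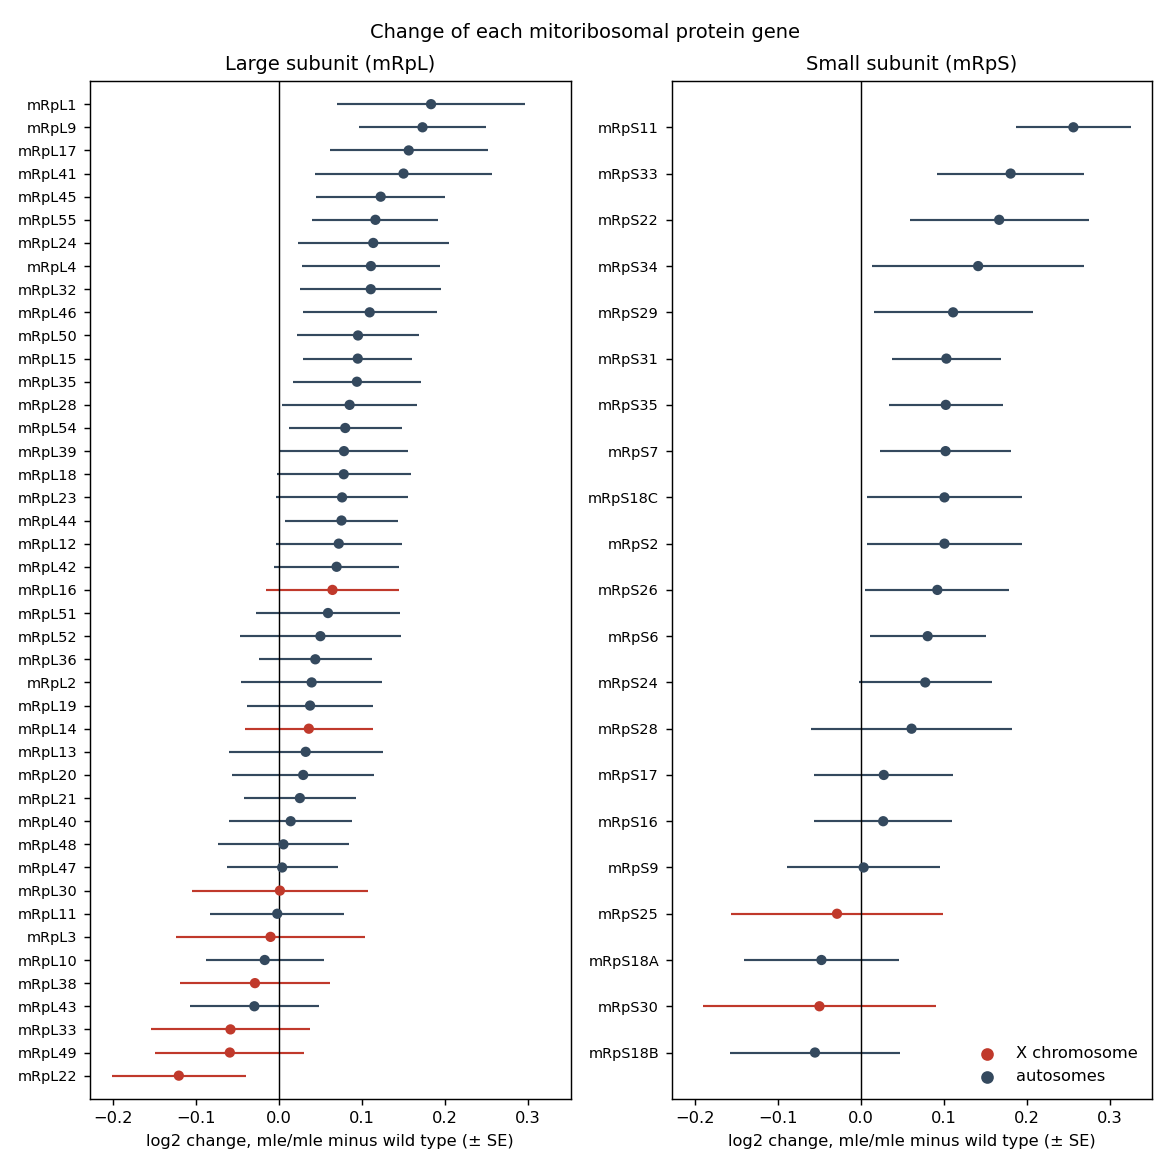
Fitted log2 change (mle/mle minus wild type, bars ± SE) of the 43 large-subunit and the 21 small-subunit genes, each panel sorted by change, with X-linked genes in red and autosomal genes in dark blue. Most points lie right of zero, and 7 of the 12 points left of zero are X-linked.

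The gene furthest from zero was mRpS11, whose bacterial counterpart S11 forms part of the platform of the small subunit. Its signal was 8.43, 8.32 and 8.34 in mle/mle larvae, against 8.07, 8.12 and 8.13 in wild type larvae. All mle/mle readings lay above all wild type readings, with a gap wider than the spread within either group. The change was 0.26 (SE 0.069, 95% interval 0.10 to 0.42), or 1.19 times the wild type signal, and did not pass after adjustment (adjusted p = 0.57 by limma). It was the 1 member with an unadjusted limma p under 0.05. Its own unadjusted p stayed under 0.05 in each alternative with a test but the PLIER fit of 4 arrays, while up to 4 further members joined it in some of them. In the deposited table of PLIER signals, a second summary of the same arrays, it read 7.54, 7.33 and 7.53 in mle/mle larvae and 7.18, 6.92 and 7.29 in wild type larvae, again apart, with a change of 0.34.

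Among large-subunit genes of bacterial descent, mRpL1 and mRpL9 had the largest positive changes. In bacteria L1 forms the mobile stalk by which spent tRNA leaves, and L9 sits at the base of that stalk. The mRpL1 signal was 6.60, 6.49 and 6.80 in mle/mle larvae and 6.41, 6.31 and 6.63 in wild type larvae. These groups overlapped, but each mle/mle array lay above the wild type array of the same number. Its change was 0.18 (SE 0.113, adjusted p = 0.9997 by limma), and with the replicate block the SE was 0.062 (adjusted p = 0.56 by limma). The mRpL9 signal was 8.00, 7.94 and 7.83 in mle/mle larvae and 7.80, 7.69 and 7.75 in wild type larvae, without overlap. Its change was 0.17 (SE 0.076, adjusted p = 0.9997 by limma). For mRpL17, whose counterpart lies near the exit of the tunnel, the change was 0.16 (SE 0.095) and the groups overlapped. Single arrays moved these values: the change of mRpL1 was 0.097 without mle/mle replicate 3 and 0.11 without wild type replicate 2, and that of mRpL17 was 0.079 without wild type replicate 2.

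Among large-subunit genes for proteins of mitochondrial origin, mRpL41 and mRpL45 had the largest changes. The change was 0.15 (SE 0.107) for mRpL41, one of the dim members at 5.73 to 6.18. It was 0.12 (SE 0.078) for mRpL45, whose human counterpart sits at the tunnel exit and holds the ribosome to the inner membrane. Both genes had overlapping groups. For mRpL41 the change was 0.066 when mle/mle replicate 2 was left out and 0.24 when mle/mle replicate 3 was, and for mRpL45 it was 0.077 without wild type replicate 1 and 0.21 by PLIER. Of the remaining members whose groups did not overlap, the large-subunit genes mRpL15, mRpL54 and mRpL55 had changes of 0.09, 0.08 and 0.12, and the small-subunit genes mRpS31 and mRpS35 had 0.10 each. These 5 are named for the values they showed. Their readings were tight: mRpL15, for instance, read 8.01, 7.98 and 7.96 in mle/mle larvae against 7.87, 7.87 and 7.92 in wild type larvae.

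In the small subunit, mRpS33, of mitochondrial origin, read 7.23, 7.02 and 7.13 in mle/mle larvae and 6.88, 7.07 and 6.89 in wild type larvae. Only wild type replicate 2 reached into the mle/mle range. The change was 0.18 (SE 0.089, adjusted p = 0.9997 by limma) and 0.10 by PLIER. For mRpS22 the mle/mle readings were close together at 6.97, 7.00 and 6.96, and those of wild type were 6.89, 6.57 and 6.98. Its change of 0.17 (SE 0.108) was 0.046 without wild type replicate 2. The change of 0.14 (SE 0.128) for mRpS34 was 0.0056 without the same array, 0.27 without wild type replicate 3 and 0.036 by PLIER. It read 7.25, 7.29 and 7.39 in mle/mle larvae against 7.18, 6.89 and 7.42 in wild type larvae. The gene mRpS29, whose human counterpart DAP3 binds GTP and is also known from cell death, differed between pairs in which group was higher, at 8.90, 8.77 and 8.69 in mle/mle larvae and 8.52, 8.80 and 8.70 in wild type larvae (0.11, SE 0.096). Its change was 0.036 without wild type replicate 1 and 0.24 by PLIER.

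**Figure D2:**
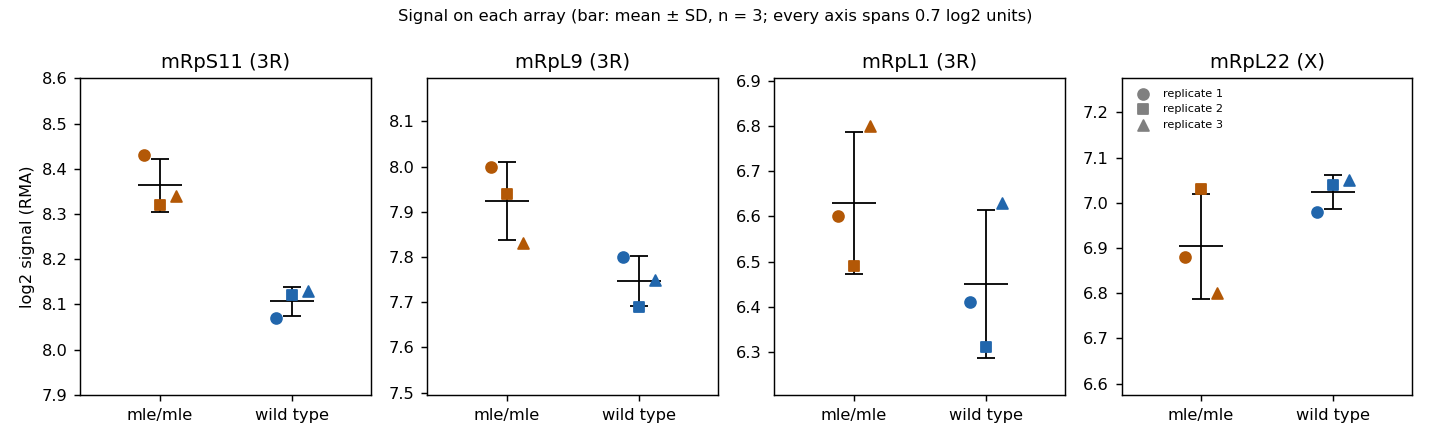
Log2 RMA signal of 4 genes on each array, mle/mle left and wild type right, with the replicate number as the marker shape and the mean ± SD (n = 3) in black. For mRpS11 and mRpL9 the groups are apart, for mRpL1 they overlap while each same-numbered pair runs the same way, and for X-linked mRpL22 the mle/mle readings reach lower than those of wild type.

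The 3 genes related to bacterial S18 did not share a direction. The change was -0.05 (SE 0.093) for mRpS18A, -0.06 (SE 0.102) for mRpS18B and 0.10 (SE 0.094) for mRpS18C, the last named for this comparison. In the PLIER table the first 2 were positive at 0.06 each, so their sign depends on how the probes are summarised. The brightest probe sets were those of mRpL45, mRpS16 and mRpS29, with single readings of 8.52 to 9.09, and the dimmest those of mRpL32, at 5.06 to 5.38, mRpL41 and mRpS25. Brightness differs between probe sets for reasons other than RNA amount and does not rank the transcripts. The signal of 62 members lay above the lower quartile on every array, the exceptions being mRpL32 and mRpL41, and RMA compresses changes of dim probe sets.

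Large and small subunit genes differed little. The median change was 0.06 over the 43 large-subunit genes, 35 of them positive, and 0.09 over the 21 small-subunit genes, 17 of them positive, a difference of -0.028. Per array, the large minus small median was -0.033, 0.023 and -0.058 on the mle/mle arrays and 0.017, 0.017 and 0.029 on the wild type arrays. These readings overlapped between the groups: mle/mle replicate 2 lay between the wild type readings, and the other mle/mle arrays lay below them. In human mitoribosomes the counterparts of mRpS30 and mRpS18A sit in the large subunit, and with both counted there the medians were 0.059 for large and 0.10 for small. Members numbered like bacterial proteins (up to mRpL36 and mRpS21) had a median change of 0.054 over 36 genes. Those with higher numbers had 0.078 over 28 genes. The number in the symbol alone set these classes, and descent was not checked gene by gene.

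**Figure D3:**
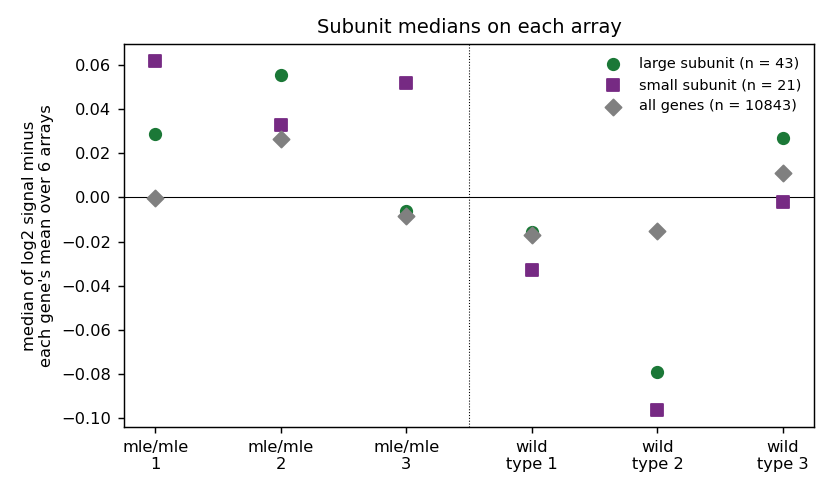
Median over large-subunit genes, small-subunit genes and all genes of the log2 signal minus each gene's own mean, on the 3 mle/mle arrays (left) and the 3 wild type arrays (right). Both subunits are lowest on wild type replicate 2, at -0.079 and -0.096, while the median of all genes there is -0.015.

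X-linked and autosomal members lay further apart than the subunits did. The X chromosome carries 10 of the 64 genes, while 2L and 2R carry 10 each, 3L 16, 3R 18 and chromosome 4 carries 0. The median change was -0.029 over the X-linked members, 7 of 10 negative, and 0.079 over the 54 autosomal members, 49 of them positive. The autosomal arms had medians between 0.065 (2R) and 0.097 (3R), and all 16 members on 3L were positive. The difference of -0.11 between X and autosomal members compares with -0.038 for all genes (62.2% of X genes negative and 56.7% of autosomal genes positive). Of the 12 members with a negative change, 7 were X-linked. The other 5 were the autosomal mRpL10, mRpL11, mRpL43, mRpS18A and mRpS18B, named here because they complete the count. By PLIER 3 of these 5 were positive, mRpL10 at 0.20 and mRpS18A and mRpS18B at 0.06 each.

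The lowest change belonged to X-linked mRpL22, whose bacterial counterpart lines the exit tunnel. Its signal was 6.88, 7.03 and 6.80 in mle/mle larvae, against 6.98, 7.04 and 7.05 in wild type larvae, and it was lower in all 3 same-numbered pairs. The change was -0.12 (SE 0.081, 95% interval -0.31 to 0.06, adjusted p = 0.9997 by limma). Leaving out mle/mle replicate 2 made it -0.18, leaving out mle/mle replicate 3 made it -0.069, and by PLIER it was -0.052. The 9 other X-linked members had changes of -0.060 (mRpL49), -0.059 (mRpL33), -0.05 (mRpS30), -0.029 (mRpL38), -0.029 (mRpS25), -0.01 (mRpL3), 0.0009 (mRpL30), 0.036 (mRpL14) and 0.06 (mRpL16). Their SE lay between 0.077 and 0.140, so none could be set apart from zero. The counterparts of mRpL3 and mRpL16 lie close to the site of peptide bond formation, and mRpL38, mRpL49, mRpS25 and mRpS30 encode proteins of mitochondrial origin.

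The X-linked members varied together from array to array. Their median deviation was -0.070, 0.12 and -0.047 on mle/mle replicates 1 to 3, and 0.004, -0.11 and 0.13 on wild type replicates 1 to 3. All 10 lay above their own mean on wild type replicate 3 and 9 on mle/mle replicate 2, but 1 on mle/mle replicate 1, 1 on wild type replicate 2 and 2 on mle/mle replicate 3. For mRpS30, the widest case, the signal was 6.52, 6.73 and 6.79 in mle/mle larvae and 6.71, 6.46 and 7.01 in wild type larvae. The autosomal members were at 0.060, 0.040 and 0.011 on the mle/mle arrays and -0.032, -0.077 and 0.012 on the wild type arrays. On wild type replicate 2, 9 of the 10 X-linked members were below their own mean, all but mRpL22, while the median of all 1763 X genes was above the gene mean there, at 0.022.

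**Figure D4:**
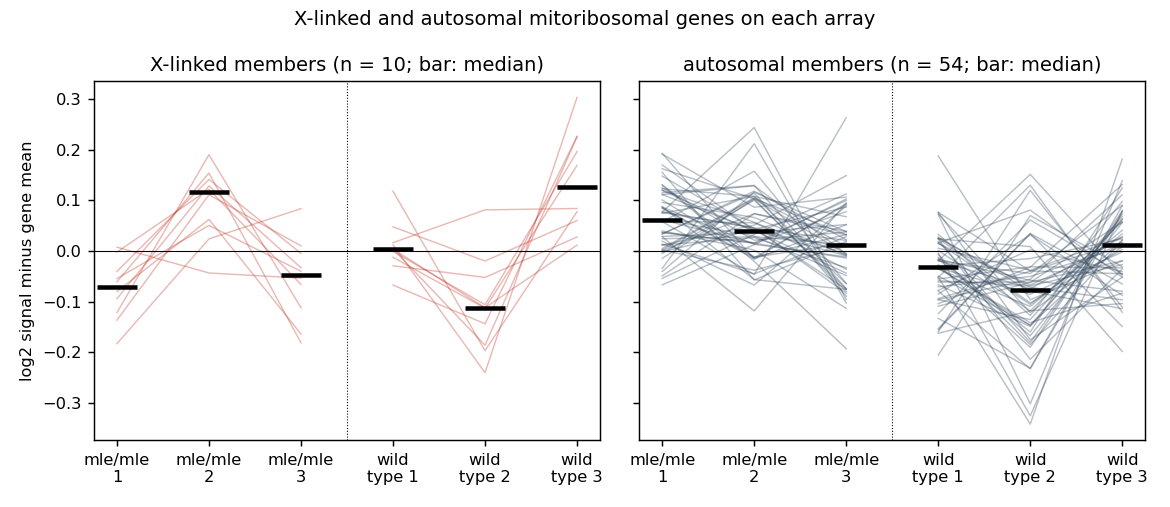
Log2 signal minus each gene's mean over the 6 arrays for the 10 X-linked members (left panel) and the 54 autosomal members (right panel), with the mle/mle arrays left of the wild type arrays in both, thin lines joining the readings of 1 gene and bars for medians. The lines join replicates only to follow a gene, and the X-linked genes are mostly highest on mle/mle replicate 2 and wild type replicate 3.

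The X minus autosomal value of the members was -0.131, 0.076 and -0.058 on the mle/mle arrays (mean -0.038 ± 0.105, SD, n = 3) and 0.035, -0.036 and 0.115 on the wild type arrays (0.038 ± 0.075, SD, n = 3). The groups overlapped, and the difference between means was smaller than the SD within mle/mle. It was lower in mle/mle in the pairs numbered 1 and 3 (-0.166 and -0.173) and higher in pair 2 (0.112), whereas over all genes it was lower in all 3 pairs (-0.040, -0.027 and -0.051). Leaving out both replicate 2 arrays gave the X-linked members a median of -0.15 with 10 of 10 negative, against 0.044 for the autosomal ones. Without wild type replicate 3 only 2 of the 10 were negative and their median was 0.053. The array codes in the PLIER column names split the same arrays in another way, which is not a separate line of evidence. Over the 4 arrays of the first code, 2 in each group, 1 of 10 X-linked members was negative, with a median of 0.048. Over the 2 arrays of the second code, 10 of 10 were negative, with a median of -0.20. The sign of the X-linked members thus depended on which arrays were compared, while the X members lay below the autosomal members in each of these settings. What the array codes stand for is not given, and their part in the result was not tested.

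The genes tko and bonsai encode mitochondrial ribosomal proteins under other symbols and can be read beside the members. The gene tko, on X, encodes the counterpart of bacterial S12 and is named technical knockout for the seizure-like paralysis of its mutants. It read 7.00, 7.13 and 6.93 in mle/mle larvae against 7.06, 7.19 and 6.93 in wild type larvae, a change of -0.04 (SE 0.093). The autosomal bonsai, for a counterpart of bacterial S15, read 8.06, 7.96 and 8.05 in mle/mle larvae against 7.86, 7.66 and 7.99 in wild type larvae, a change of 0.19 (SE 0.095, adjusted p = 0.9997 by limma). The readings of both genes overlapped between groups. The sign of tko depended on the summary, with 0.050 by PLIER.

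Other genes of mitochondrial gene expression gave 34 measured members with tko and bonsai among them. None was called, 23 were positive and 11 negative, and the median change was 0.035. The 8 translation factors had a median of 0.12 with 6 positive. Of these, mEFG1, mIF2, mIF3, mRF1 and mRRF1 were dim, at 4.49 to 5.78, below the lower quartile of every array (5.80 to 5.84). By PLIER mIF2 was at -0.0951, mRF1 at -0.0160 and mEFG1 at 0.1087, each of the other sign than by RMA. The translation factor mEFTu1, which brings charged tRNA to the ribosome, read 7.98, 7.97 and 8.02 in mle/mle larvae against 7.79, 7.70 and 7.90 in wild type larvae, without overlap (change 0.20, SE 0.077, adjusted p = 0.9997 by limma). The 14 aminoacyl-tRNA synthetases of mitochondria had a median of 0.044 with 10 positive, the widest being CysRS-m at 0.20 (SE 0.206). The 10 genes of mitochondrial DNA upkeep, transcription and RNA handling had a median of 0.0073. The synthetase genes ArgRS-m, AsnRS-m, GluRS-m, IleRS-m, LeuRS-m and ValRS-m also read below the lower quartile of every array, as did PolG1 and mTerf3.

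Cytosolic ribosomal protein genes and oxidative phosphorylation genes were the groups nearest in function. The 37 cytosolic ribosomal protein genes were taken by symbol and do not cover the whole ribosome. They include genes with -like symbols, such as RpL24-like, and paralogs, such as RpS28a and RpS28b. They had a median change of 0.044 with 29 positive and 0 called. On the 6 arrays their medians ran close to those of the mitoribosomal genes, with 0.035, 0.043 and -0.017 on mle/mle arrays and 0.009, -0.091 and 0.002 on wild type arrays. The difference between the mitoribosomal and the cytosolic median was at most 0.028 in size on any array. Their median change was 0.011 after quantile normalization, 0.023 without wild type replicate 2, 0.00051 without both replicate 2 arrays and 0.073 without wild type replicate 1, where the mitoribosomal median was 0.065. The 70 oxidative phosphorylation genes, which include paralogs specific to the testis such as COX4L, had a median of 0.039 with 40 positive and 0 called. That median was -0.0025 after quantile normalization, when the mitoribosomal one was 0.055. It was also below zero when mle/mle replicate 1 (-0.0033) or wild type replicate 2 (-0.0044) was left out. Without mle/mle replicate 2 it was 0.10, above the mitoribosomal 0.063, and without both replicate 2 arrays it was 0.058, above the mitoribosomal 0.023, so the order of these groups of genes depended on the arrays used. They parted from the mitoribosomal genes on mle/mle replicate 2, where their median was -0.094 while that of the mitoribosomal genes was 0.045. On X, 10 of 11 oxidative phosphorylation genes were negative with a median of -0.045, against 0.051 over 58 autosomal ones. The largest changes in these groups were 0.33 for RpL24-like, -0.22 for RpS18 and -0.21 for RpS10a, and 0.35 for Cyt-c1, -0.34 for COX4L and 0.32 for ND-SGDH, and none of these 6 passed the test (smallest adjusted p = 0.70 by limma). No test of a difference between the groups of genes was run.

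**Figure D5:**
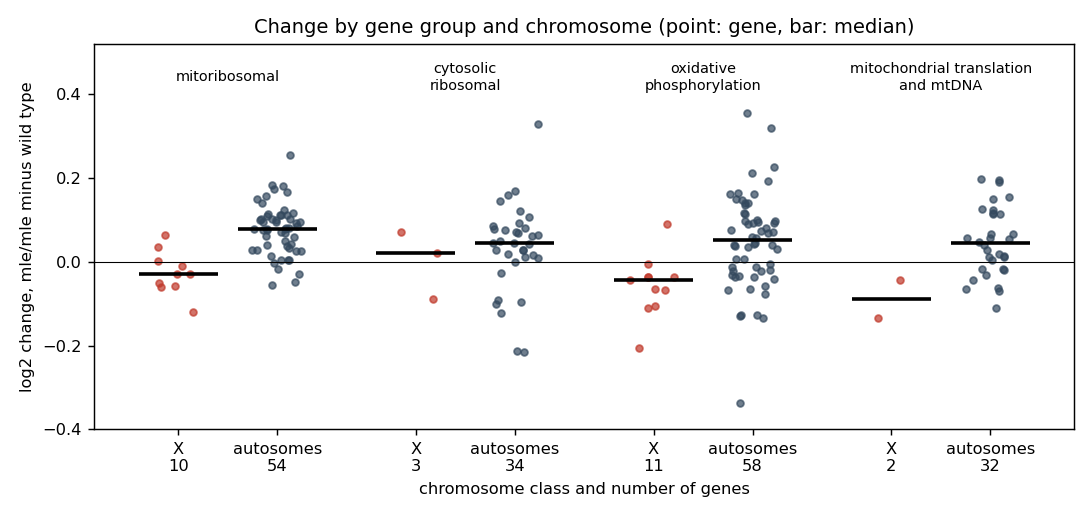
Log2 change (mle/mle minus wild type) of single genes in 4 groups, X-linked genes in red left of autosomal genes in dark blue, with the number of genes under each column and bars for medians. The X-linked median lies below the autosomal one in all 4 groups, with -0.029 against 0.079 for mitoribosomal genes, while 2 of the groups have under 4 X-linked genes.

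Markers of larval tissues were read on the same arrays because mitochondrial content differs between tissues. Changes were positive for 5 of 8 muscle genes (median 0.02), 3 of 3 fat body genes (0.15), 6 of 9 gut enzyme and pump genes (0.28) and 1 of 5 neuronal genes (-0.02), and negative for 6 of 6 glue genes (-0.27) and 14 of 16 testis genes (-0.11). Of these 47 genes 1 was called, Amy-d. The gut list held large changes both ways, from 1.30 (Amy-d) and 0.81 (Jon44E) to -0.58 (betaTry) and -0.61 (Jon99Fi). Its median of 0.28 therefore does not measure gut content. Fat body was the list whose median was also lowest on wild type replicate 2 (-0.25, against 0.015 to 0.135 on mle/mle arrays and -0.099 and 0.060 on the other wild type arrays). Its genes did not all do so: Fbp1 and Lsp2 read lowest there. Fbp2 read lowest on mle/mle replicate 2, at 11.54 against 11.86 on wild type replicate 2. Testis genes were low on both replicate 2 arrays and muscle genes on mle/mle replicate 2 (-0.37), where the mitoribosomal median was at its highest. The part of these tissues in the mitoribosomal values was not tested.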

How the data were processed

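RNA of 6 samples was read on Affymetrix Drosophila arrays. The authors deposited 1 log2 value per probe set and array, an RMA summary according to the submitters' processing notes, and this table gave the main values. The RMA version and its settings are not given in the sources used here. A second table deposited by the authors holds PLIER values on the log2 scale (offset 16, per the file headers), and its columns show the group but no replicate number. The tables hold no detection call, and the number of arrays limits the precision.

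Of 14010 probe sets, 44 controls were left out. The platform annotation gave 1 symbol to 12442 of the others and several to 327, while 1197 had none. Current symbols came from RefSeq (Release 6 plus ISO1 MT), where all 66 mitoribosomal probe sets matched by Entrez ID. The arrays name no build, so no coordinates are given.

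All probe sets were fitted together in R 4.3.3 with limma 3.58.1 (functions lmFit and eBayes), and its p-values are two-sided. Per-array values are medians of signals centred on each gene's mean. Figures were drawn with matplotlib 3.10.9. The fit was checked on simulated data with independent noise and with known changes larger than those of the members. That check does not cover changes of the members' size or deviations shared between arrays. The members, lists and tests were chosen with earlier results of these data known, and medians over lists therefore carry no p. Named were the X-linked members, the largest changes of each subunit, the smallest p, the brightest and dimmest, and members with 2 probe sets.

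Replicate numbers come from the titles. Arrays of the same number deviated together: over all probe sets their deviations from the group mean had correlations of 0.17, 0.28 and 0.52. The main fit was unpaired, with the replicate block as an alternative, and counts over same-numbered pairs are given beside it. Over the mitoribosomal probe sets alone the correlations of same-numbered arrays were -0.16, -0.16 and 0.57. Arrays of unlike number reached 0.59 there (mle/mle replicate 1 with wild type replicate 2) and 0.35 (mle/mle replicate 2 with wild type replicate 1), and the rest were negative. For these genes, counts over same-numbered pairs therefore rest on the titles alone. Further alternatives were the PLIER table with and without its array code, quantile normalization, centring, leaving out the dimmest 40% of probe sets, another variance model, means over probe sets, and leaving out arrays.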

Additional observations from a re-analysis of the deposited data

How the results depend on the processing

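No mitoribosomal gene was called by limma as reported or in any of the 16 alternatives with a test, the replicate block included, while the 2 arrays of the second array code allow none. The alternatives by array code, the X minus autosomal result and the other placing of mRpS30 and mRpS18A were chosen after seeing the data. Why values moved was not tested. The median change of 0.0736 ranged, when 1 array was left out, between 0.0243 (wild type replicate 2) and 0.0871 (wild type replicate 3). Quantile normalization gave 0.0546 and PLIER signals 0.1001, and it was 0.0231 without replicate 2 of both groups. It was 0.1301 over the 4 arrays of the first array code and -0.0268, with 29 of 64 positive, over the 2 arrays of the second. Members at an unadjusted limma p under 0.05 numbered 1 as reported, 2 in the PLIER table with or without its array code, 2 with probe sets averaged, 3 with the replicate block, 1 to 4 when leaving out 1 array, 5 without replicate 2 of both groups and 0 over the 4 arrays of the first code. The block left all fitted changes as they were. The large minus small median ranged from -0.0345 to 0.0001 when leaving out 1 array, turning sign without mle/mle replicate 1. The X minus autosomal median stayed negative, from -0.1463 to -0.0455 when leaving out 1 array and -0.2220 over the arrays of the second code.

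Of 477 values for 32 named genes under the alternatives, 438 kept their sign and 39, in 15 genes, turned. Leaving out 1 array, the log2 change ran from -0.0665 to 0.0460 for mRpL11, -0.0161 to 0.0778 for mRpL14, -0.0847 to 0.1002 for mRpL3, -0.0973 to 0.0601 for mRpL30 and -0.1503 to 0.0173 for mRpL33. It ran from -0.0930 to 0.0481 for mRpL38, -0.1275 to 0.0236 for mRpL49, -0.0274 to 0.0750 for mRpS16 and -0.1079 to 0.0340 for mRpS18A. For mRpS18B it ran from -0.1345 to 0.0268, for mRpS25 from -0.1313 to 0.0765 and for mRpS30 from -0.1828 to 0.0890. Without replicate 2 of both groups the change was -0.0332 for mRpL14, -0.0303 for mRpL16, -0.1613 for mRpL30, -0.0038 for mRpL41, -0.0437 for mRpS16, 0.0024 for mRpS18B and -0.0156 for mRpS18C. In the PLIER table, with or without the array code, it was -0.1203 for mRpL30, 0.0637 for mRpS18A, 0.0633 for mRpS18B and 0.0038 for mRpS30. Quantile normalization gave -0.0104 for mRpL30 and -0.0003 for mRpS16, and centring gave -0.0011 for mRpL30. Dim probe sets such as that of mRpL32 limit what a small change can show.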

Other observations

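The gene mRpS10 shares its only probe set with CG34316 and was left out of all counts. That probe set read 8.17, 8.12 and 7.99 in mle/mle larvae and 8.00, 8.04 and 7.99 in wild type larvae, a change of 0.08 (SE 0.075), and cannot be assigned to either gene.

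A second probe set existed for mRpL11, whose counterpart forms the base of the factor-binding stalk, and for mRpL12, whose counterpart is the stalk protein that recruits translation factors. The brighter probe set of mRpL11 had a change of -0.0023 (SE 0.081) and the dimmer one -0.09 (SE 0.127). On wild type replicate 2 they went opposite ways, with 7.34 on the brighter, its lowest reading, and 6.68 on the dimmer, its highest. Those of mRpL12 had changes of 0.07 (SE 0.076) and 0.06 (SE 0.107).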
